A study of Mus musculus with 17 samples.

Results

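MHC class II molecules are αβ heterodimers that display peptides to CD4+ T cells, and 7 genes of this presentation pathway were followed in mouse alveolar epithelial type 2 (AT2) cells. H2-Aa and H2-Ab1 encode the α and β chains of I-A, and H2-Eb1 encodes the β chain of I-E. Cd74 encodes the invariant chain, which fills the peptide groove until the molecule reaches the endosome. H2-DMa and H2-DMb1 encode the chains of DM, which exchanges the remnant of the invariant chain for peptide. Ciita encodes the coactivator that switches these genes on. The 7 genes were named by symbol, with earlier results of these data known. All 7 were found among the 43430 gene IDs of both count tables.

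The pathway is best known from dendritic cells, macrophages and B cells, where it is constitutive, but AT2 cells, which make the surfactant of the alveolus, are also known to carry class II in the resting lung. CIITA does not bind DNA itself. It is recruited by RFX, CREB and NF-Y factors, which sit on the X and Y boxes upstream of class II genes. Mice of the C57BL/6 background make no I-E, because the I-E α gene is inactive in their haplotype, so H2-Eb1 has no natural partner there.

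RNA was sequenced in 17 libraries of sorted AT2 cells from C57BL/6J mice aged 2 months, with no transgene or mutation named in the labels. The 8 poly(A) libraries, made from 3 ng of RNA, came from naive mice 24 h after ISRIB (4 libraries) or vehicle (4 libraries), which the titles call saline. ISRIB is a small molecule that restores translation in cells whose integrated stress response is active. The other 9 libraries, of total RNA, made from 0.35 ng with another kit, comprised 4 from naive mice and 5 taken 14 days after bleomycin, a chemotherapy agent used to injure the alveolar epithelium and provoke fibrosis. Both groups of this kit were labelled vehicle-treated and carry saline in their titles. The labels used here give neither drug's dose nor route. They do not say that each library came from its own mouse, so p-values measure only the spread between these libraries. Which surface markers defined the sort is not known from the sources used here. Class II itself is a surface marker in some sorts of AT2 cells, and a gate on it would select on the measured genes.

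Libraries are named by group and replicate number. A poly(A) library held between 10493574 and 15727139 counts, a total-RNA library between 3295257 and 6333166. Of the total-RNA counts, 21.1% to 32.2% fell on ribosomal-RNA-like models. The AT2 label held in both kits. Sftpc, the gene of surfactant protein C, stood at 100200 to 110200 CPM (counts scaled to a common library size) in the poly(A) libraries. In the total-RNA libraries it stood at 18810 to 39250 CPM. In bleomycin 1 and bleomycin 2 the 12 AT2 markers summed to 50290 and 63420 CPM, below the naive range of 81440 to 83930. Bleomycin 4, at 74510 CPM, also lay below that range, and bleomycin 3 and 5 lay above it at 92380 and 85670 CPM. In bleomycin 1 and 2, 6 fibroblast markers summed to 49.4 and 120 CPM, against 2.68 to 8.19 in the naive and 17.4 to 26.8 in the other 3 bleomycin libraries. In ISRIB 2 and ISRIB 4 a list of 21 macrophage and monocyte markers summed to 3659 and 3982 CPM, against 1966 to 2359 in the other 6 poly(A) libraries. That sum is nearly all Lyz1, the lysozyme gene that AT2 cells also express. In ISRIB 2 and ISRIB 4 a list of 5 airway markers, mostly Scgb1a1, summed to 2903 and 2057 CPM. It summed to 3282 to 3713 CPM in the vehicle libraries and to 3657 and 3531 CPM in ISRIB 1 and 3. Among the total-RNA libraries the airway sum was 374 to 769 CPM in the naive and 410 to 792 CPM in the bleomycin group. The calls of the 7 genes, their ratios and the counts of pathway genes called are given with and without bleomycin 1 and 2 or ISRIB 2 and 4.

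Of the 7 genes, 5 lie within the MHC on chromosome 17 of GRCm38, where GENCODE M21 places H2-DMa at chr17:34119541-34139101, H2-DMb1 at chr17:34153072-34160230 and H2-Ab1 at chr17:34257689-34269419. H2-Aa, the only member of the cluster on the minus strand, lies at chr17:34282744-34287823, and H2-Eb1 at chr17:34305867-34316674. Ciita lies at chr16:10480059-10528418, and Cd74 also lies outside the MHC. Reads of a few exons could be shared with other genes. Exons of Brd2 on the opposite strand overlap 10.4% of the H2-DMa exon bases, and Dexi overlaps 3.45% of those of Ciita. Whether counting used strand is not known from the sources used here. H2-DMb1 shares 22.7% of its 50-base transcript windows with its neighbour H2-DMb2, so reads from these stretches cannot be assigned to either copy.

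The promoters are shown for the X and Y letters through which CIITA is recruited. RefSeq's table of promoter windows (GRCm38.p6, 250 bases before to 50 after each gene start) held 5 windows of 4 members: H2-Aa, H2-Eb1, H2-DMb1 and H2-DMa, the last with 2 windows. The letters searched on both strands were AGNNACNGA for the X box and ATTGG for the Y box. In H2-Eb1 (chr17:34305735-34305842, plus strand) and H2-Aa (chr17:34287837-34287944, minus strand) the stretches below run 5′ to 3′, with the X letters and then the Y letters in capitals. The H2-Aa stretch does not hold the 9 X letters. Its first capitals are the shorter GNAAC, a search added after this promoter had been seen.
H2-Eb1: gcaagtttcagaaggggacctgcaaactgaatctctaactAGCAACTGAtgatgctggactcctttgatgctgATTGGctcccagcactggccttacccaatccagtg
H2-Aa: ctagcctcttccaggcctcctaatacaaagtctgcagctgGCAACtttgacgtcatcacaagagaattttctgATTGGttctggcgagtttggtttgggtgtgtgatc

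In H2-Eb1 the X letters began 92 bases before the RefSeq start and the Y letters 33 bases after the X letters. In H2-Aa the GNAAC letters began 81 bases before the start and the Y letters 33 bases after them. These distances are counted from different letters, since GNAAC begins at the second of the 9 X letters. In H2-DMb1 the distance from X to Y was 34 bases. The X letters followed by the Y letters within 35 bases were found in 2 of the 5 member windows, those of H2-Eb1 and H2-DMb1, and in 0.314% of all 32851 windows (103). The X letters alone were found in 17.7% of all windows and the Y letters alone in 37.4%. GNAAC followed by ATTGG within 45 bases was found in 6.04% of all windows and in 3 of the 5 member windows, those of H2-Aa, H2-Eb1 and H2-DMb1. Neither H2-DMa window held either pair. H2-Ab1, Cd74 and Ciita were not in the table.

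H2-DMb1 and its duplicate H2-DMb2 are set side by side because the copies differ within these letters. They also differ in their counts, given further on, and a link between the letters and the counts was not tested. The 30 bases around the X letters lie at chr17:34153088-34153117 in H2-DMb1 and at chr17:34145117-34145146 in H2-DMb2, both on the plus strand, with the 9 bases at the X position in capitals. The H2-DMb1 stretch lies 95 bases before the RefSeq start at its X letters, but within the first exon of the GENCODE M21 model.
H2-DMb1: gtttacctAGTAACTGAtgatgctaggctg
H2-DMb2: gtttacctATTAACCGAtgatgctaggcta

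Counted from 1 at the 5′ end of the capitals, with the H2-DMb1 base first, the copies differ there at G2T and T7C. The H2-DMb2 bases therefore do not match AGNNACNGA. Over the 250 bases before each start the 2 copies were identical at 175 of 291 alignment columns (60.1%), with gap columns counted. The X position lies 95 bases before the RefSeq start in H2-DMb1 and 124 in H2-DMb2, so the 2 windows are shifted against each other. The percentage is therefore not the identity of the paired bases alone.

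Levels of the genes were compared per kilobase of exon, since longer genes collect more reads. The length merges all annotated exons of a gene, with 3798 bases for H2-Aa, 2568 for H2-Ab1 and 1944 for H2-Eb1. The order of these chains depends on it. In CPM without length, H2-Aa stood highest of them in the vehicle libraries at 773, with H2-Ab1 at 716.5 and H2-Eb1 at 425. In the vehicle libraries Cd74 stood at 1954 ± 121 CPM per kb (SD, n = 4), rank 17 of the 11995 genes ranked. H2-Ab1 followed at 279 ± 20.7, H2-Eb1 at 219 ± 11.9 and H2-Aa at 204 ± 8.15 CPM per kb. The DM chains were lower, at 50.03 ± 3.05 for H2-DMb1 and 17.9 ± 1.06 for H2-DMa, and Ciita was lowest at 5.28 ± 1.04, rank 5679. The RNA of the invariant chain thus exceeded that of its nearest neighbour in this order, H2-Ab1, by 7.004-fold per kb, and each neighbouring pair kept its order in 4 of 4 vehicle libraries. The ranges of H2-Eb1 and H2-Aa overlapped, and those of the other neighbours did not.

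In the naive total-RNA libraries the order was the same from Cd74 (846 ± 44.6 CPM per kb, rank 35 of 11161) to H2-DMb1 (17.9 ± 1.09). H2-Eb1 and H2-Aa differed by 1.01-fold there, in 3 of 4 libraries in this order. Ciita (4.59 ± 0.780) and H2-DMa (4.25 ± 1.07) overlapped, and their order was the reverse of that in the poly(A) libraries. The kits differ in RNA input, chemistry and depth, so levels were not tested between them. Together the 7 genes took 0.507% to 0.594% of all counts in the poly(A) libraries.

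**Figure D1:**
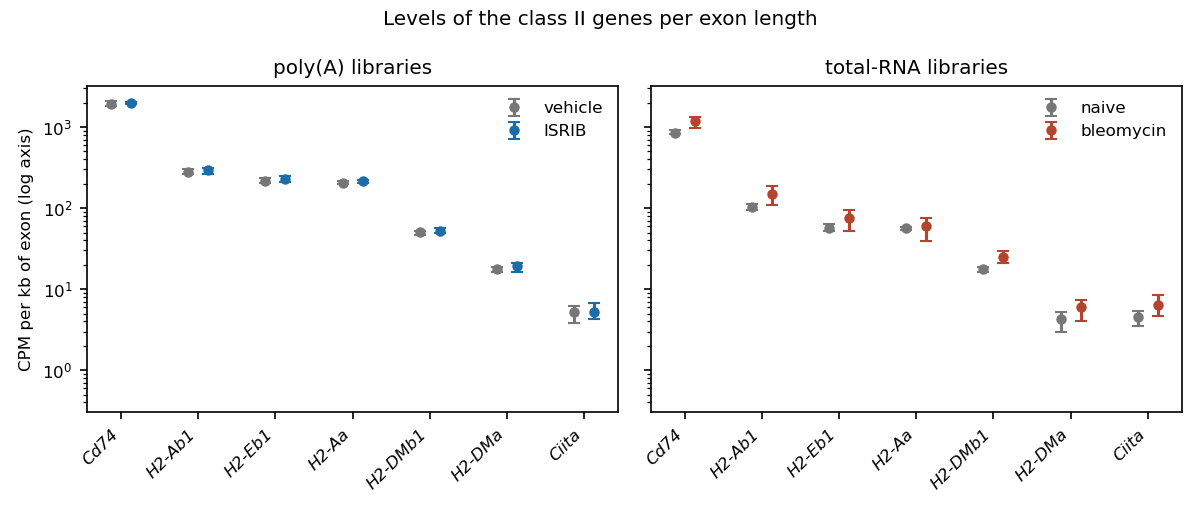
Mean level of each gene in CPM per kb of exon on a log axis, with bars from the lowest to the highest library (poly(A) libraries left, 4 per group, and total-RNA libraries right, 4 naive and 5 bleomycin). Cd74 stands 7.004-fold above H2-Ab1 in the vehicle libraries, and Ciita and H2-DMa are lowest in the total-RNA libraries.

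At 14 days after bleomycin, RNA of Cd74, H2-DMb1 and H2-Ab1 was higher than in naive AT2 cells, by 1.39-fold, 1.40-fold and 1.42-fold. H2-Eb1, H2-DMa and Ciita had fold changes of 1.32, 1.40 and 1.37 that did not pass the test, and H2-Aa one of 1.08. So 3 of 7 genes were called by edgeR's quasi-likelihood test (adjusted p under 0.05 over 11223 genes), all 3 higher. In this comparison 11.2% of all genes tested were called higher, 9.31% lower and 20.5% in either direction. The median log2 fold change of the 7 genes was 0.47, against 0.00 over all genes. The summed share of the 7 genes in a library's counts was 0.204% ± 0.0127 in the naive libraries (SD, n = 4) and 0.290% ± 0.0489 after bleomycin (SD, n = 5). In sorted bulk samples, fewer cells of a type and less RNA per cell cannot be told apart, and the same holds for more of either.

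Cd74, the invariant chain, stood at 1407, 1379, 1531 and 1367 CPM in naive 1 to 4. In bleomycin 1 to 5 it stood at 1616, 1827, 2231, 2178 and 2012 CPM. All 5 bleomycin libraries lay above all 4 naive ones, and bleomycin 1 was the lowest of its group. The log2 fold change was 0.47 (SE 0.12, edgeR adjusted p = 0.0108, 95% interval 0.21 to 0.73). Cd74 was called under all 17 alternative analyses.

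Of the I-A chains, H2-Ab1 was called and H2-Aa was not. H2-Ab1, the β chain, stood at 286, 247, 290 and 249 CPM in naive 1 to 4 and at 279, 300, 487, 417 and 415 CPM in bleomycin 1 to 5. Bleomycin 1 lay within the naive range, and the other 4 lay above it. The log2 fold change was 0.50 (SE 0.15, edgeR adjusted p = 0.0232), and the call was lost without naive 2 (edgeR adjusted p = 0.0768), without naive 4 (0.0859) or without bleomycin 3 (0.0583).

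H2-Aa, the α chain of the same heterodimer, stood at 204, 219, 222 and 211 CPM in naive 1 to 4. In bleomycin 1 to 5 it stood at 148, 191, 289, 252 and 278 CPM. The bleomycin libraries lay on both sides of the naive range, with bleomycin 1 and 2 below all naive libraries and the other 3 above them. The log2 fold change was 0.11 (SE 0.16, edgeR adjusted p = 0.666, 95% interval -0.22 to 0.45), and the difference from H2-Ab1 was tested as a ratio within libraries, given below.

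H2-Eb1, the I-E β chain, stood at 107, 101.5, 125 and 110 CPM in naive 1 to 4 and at 100.5, 127, 183, 167 and 154 CPM in bleomycin 1 to 5. Bleomycin 1 was below all naive libraries and the other 4 were above them. Its log2 fold change of 0.40 (SE 0.15) missed the threshold (edgeR adjusted p = 0.0642).

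For the DM chains, H2-DMb1 stood at 31.2, 31.0, 27.3 and 30.7 CPM in naive 1 to 4 and at 35.2, 40.1, 49.2, 43.0 and 42.6 CPM in bleomycin 1 to 5. The groups did not overlap, as for 10.4% of all genes tested in this direction. The log2 fold change was 0.49 (SE 0.14, edgeR adjusted p = 0.0221). It was called under 12 of the 17 alternatives. Among libraries left out one at a time, the call was lost without naive 2 (edgeR adjusted p = 0.0505), naive 3 (0.0787), naive 4 (0.0593) or bleomycin 3 (0.0552).

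H2-DMa, its partner chain, stood at 10.1, 13.2, 17.4 and 17.9 CPM in naive 1 to 4 and at 13.8, 20.8, 20.9, 25.7 and 21.5 CPM in bleomycin 1 to 5. Bleomycin 1 lay within the naive range and the other 4 above it. These values rest on 30 to 136 counts per library, for which counting error alone gives a coefficient of variation of 8.58% to 18.3%. This log2 fold change of 0.48 (SE 0.22) did not pass (edgeR adjusted p = 0.137).

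Ciita, the coactivator, stood at 33.9, 45.3, 44.1 and 51.9 CPM in naive 1 to 4. In bleomycin 1 to 5 it stood at 49.7, 44.8, 71.2, 79.8 and 56.1 CPM. Bleomycin 3, 4 and 5 lay above all naive libraries and the other 2 within their range. Its log2 fold change of 0.45 (SE 0.17) missed the threshold (edgeR adjusted p = 0.0727).

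**Figure D2:**
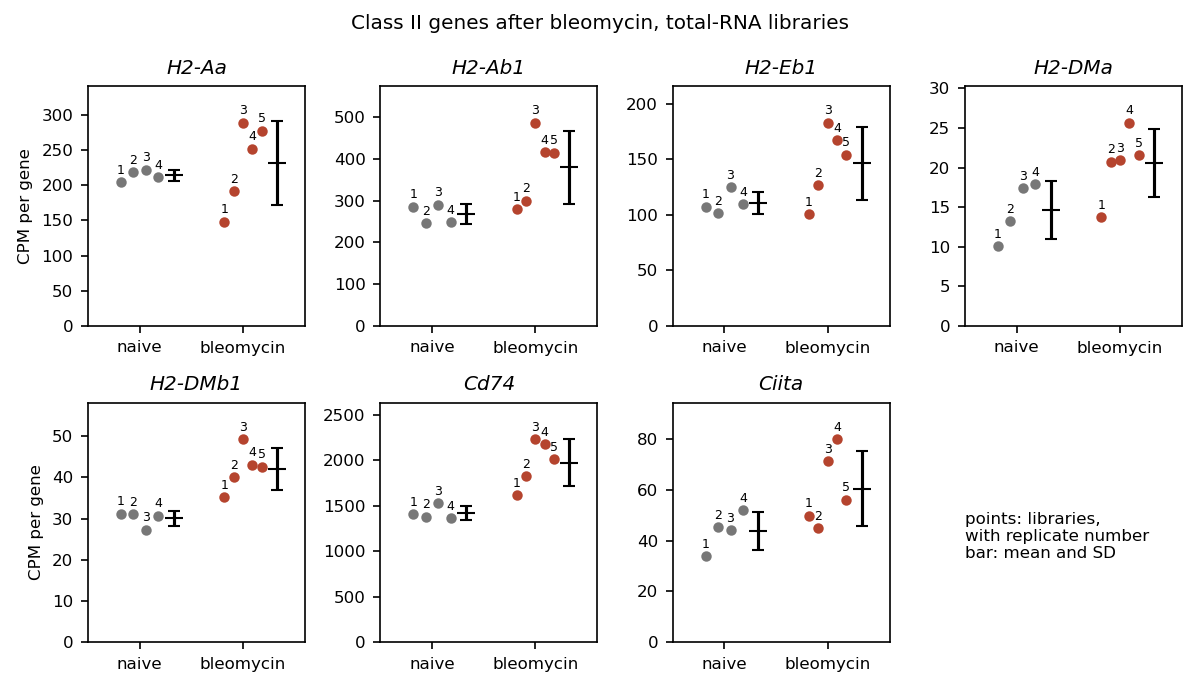
CPM of each gene in the 4 naive and 5 bleomycin total-RNA libraries, with replicate numbers, group mean and SD (each vertical axis starts at 0). The groups separate for Cd74 and H2-DMb1, and for H2-Aa bleomycin 1 and 2 (148 and 191 CPM) lie below all naive libraries.

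The low bleomycin libraries were the same for most genes. Averaged over the 7 genes on the log2 scale and set against their group's mean, bleomycin 1 stood at -0.40 and bleomycin 2 at -0.18, and bleomycin 3, 4 and 5 at 0.26, 0.22 and 0.09. Bleomycin 1 and 2 are also the libraries with the lowest AT2 and highest fibroblast marker sums. All 3 fibroblast markers tested were called higher after bleomycin, Col1a1, Col1a2 and Col3a1. Their log2 fold changes were 3.89, 2.72 and 2.35 (edgeR adjusted p = 0.0011, 0.033 and 0.0012). Some markers on other lists were called higher after bleomycin too. The 6 endothelial markers summed to 19.4 to 26.5 CPM in the naive and 19.8 to 80.4 CPM in the bleomycin libraries, with Cdh5 and Vwf called higher (log2 fold changes 1.44 and 1.78, edgeR adjusted p = 0.0183 and 0.00948). Foxj1 of ciliated airway cells was also called higher (2.27, edgeR adjusted p = 0.0044), as was the epithelial keratin gene Krt8 (1.11, edgeR adjusted p = 7.33e-06). On the epithelial list Krt18 was called higher too, but Nkx2-1 was called lower (-0.46, edgeR adjusted p = 0.00685). Scgb1a1 of the airway list was not called (-0.17, edgeR adjusted p = 0.61). Of the AT2 list, Sftpd, Napsa and Muc1 were called higher and Etv5 and Cd36 lower. Lyz1 was called lower. The part of these markers in the class II levels was not tested. Without these 2 libraries, an alternative added after the marker sums had been seen, 6 of the 7 genes were called higher, in a fit that called 10.9% of all genes higher. H2-Aa was then among them, with a log2 fold change of 0.35 (edgeR adjusted p = 0.0132), beside 0.72 for H2-Ab1, and H2-DMa was the exception (edgeR adjusted p = 0.0549). Leaving out bleomycin 1 alone gave 6 calls, with 12.3% of all genes called higher. Leaving out naive 2, naive 4 or bleomycin 3 gave 1, which was Cd74, with 8.54%, 7.5% and 10.8% of all genes called higher.

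The smaller change of H2-Aa was tested as a ratio within each library, for all 21 pairs of the 7 genes, a test added after its values had been seen. For every count of H2-Ab1 there were 0.715, 0.888, 0.765 and 0.849 counts of H2-Aa in naive 1 to 4. The ratios were 0.531, 0.637, 0.594, 0.605 and 0.669 in bleomycin 1 to 5. All 5 bleomycin libraries lay below all 4 naive ones, and the mean log2 ratio was 0.40 lower after bleomycin, at -0.72 ± 0.13 (SD, n = 5) against -0.32 ± 0.14 (SD, n = 4).

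The ratios of H2-Aa to H2-DMb1 and to Cd74 also separated the groups, with mean log2 differences of -0.41 and -0.39. Each of the 3 had a two-sided exact permutation p of 0.0159, the smallest that 5 against 4 libraries can give, and an adjusted p of 0.111 over the 21 pairs, so none passed the correction. The groups overlapped for the ratios of H2-Aa to H2-Eb1, H2-DMa and Ciita, with mean log2 differences of -0.30, -0.43 and -0.37, exact permutation p-values of 0.0317, 0.0952 and 0.111 and adjusted values of 0.167, 0.389 and 0.389. Among the 15 pairs without H2-Aa, the mean log2 differences lay between -0.12 and 0.10 and the exact permutation p-values between 0.159 and 0.952. Without bleomycin 1 and 2, the differences for H2-Ab1, H2-DMb1 and Cd74 were -0.37, -0.23 and -0.24. The groups still did not overlap, at an exact permutation p of 0.0571, the smallest that 3 against 4 libraries can give, and an adjusted p of 0.4.

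**Figure D3:**
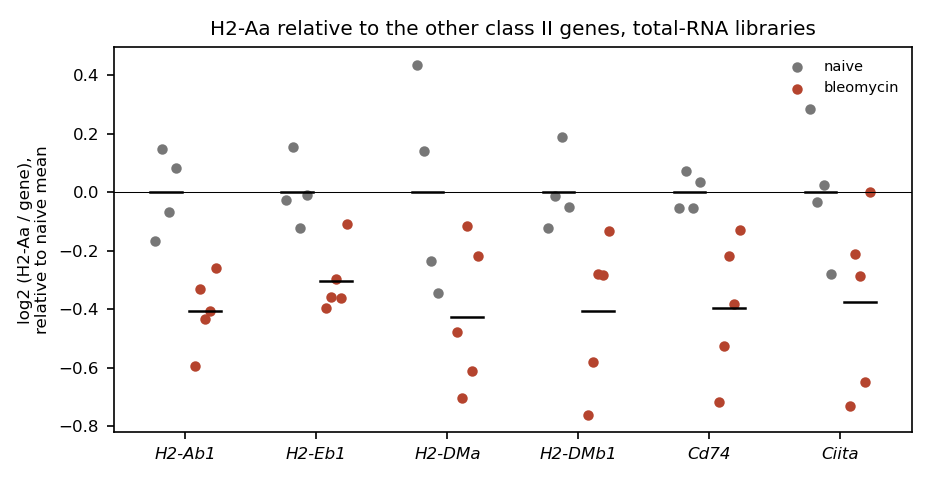
Log2 ratio of H2-Aa to each of the other 6 genes in every total-RNA library, relative to the mean of the 4 naive libraries, with group means as black lines. For H2-Ab1, H2-DMb1 and Cd74 all 5 bleomycin libraries lie below all 4 naive libraries.

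Other steps of the pathway were read from a list of 67 further genes, of which 44 were tested in the bleomycin comparison. Of these, 14 were called higher and 1 lower, beside 11.2% and 9.31% of all genes tested, and their median log2 fold change was 0.11 against 0.00 over all genes. Among endosomal proteases and their regulators, 6 of 10 tested were higher and none was lower. These were the cathepsin genes Ctsb, Ctsd, Ctsh and Ctsz, the legumain gene Lgmn and the napsin gene Napsa. Cathepsins and legumain degrade antigens and the invariant chain, and napsin A, which is also on the AT2 marker list, processes surfactant proteins.

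Ctsb stood at 196, 204, 183 and 173 CPM in naive 1 to 4 and at 251, 374, 342, 309 and 315 CPM in bleomycin 1 to 5, with no overlap (log2 fold change 0.75, SE 0.12, edgeR adjusted p = 0.000296). Ctsz likewise rose, from 72.0 ± 11.4 to 124 ± 12.8 CPM (SD, n = 4 and 5, edgeR adjusted p = 0.000281). Ctss, the cathepsin that trims the invariant chain in professional presenting cells, had 0 to 2 counts in a naive library and 0 to 10 in a bleomycin library and was not tested. Ifi30, the thiol reductase of the endosome, had a log2 fold change of 0.04 (edgeR adjusted p = 0.887).

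Among the 12 factors that bind class II promoters or are recruited there, Creb3 and Smarca4 were called higher and none was called lower. Of all genes tested, 11.2% were called higher and 9.31% lower, and the median log2 fold change of the 12 was -0.04. Smarca4, the ATPase subunit of a chromatin remodeller, rose from 180 ± 13.9 to 262 ± 27.8 CPM (log2 fold change 0.54, SE 0.11, edgeR adjusted p = 0.00273). Rfx5, the DNA-binding subunit of RFX, had a log2 fold change of 0.21 (SE 0.19, edgeR adjusted p = 0.468). Rfxank, on the same list, stood at 9.95 ± 1.46 CPM in the naive and 5.59 ± 1.72 CPM in the bleomycin libraries, with no overlap. It was not called (log2 fold change -0.80, SE 0.30, edgeR adjusted p = 0.0673).

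Of 11 tested genes of the interferon-γ axis and of repression of Ciita, Ifngr2 and Socs3 were higher and Prdm1 was lower. Of all genes tested, 11.2% were called higher and 9.31% lower, so these counts are not a result about this list. Ifngr2, a chain of the interferon-γ receptor, stood at 15.8, 22.2, 23.4 and 14.0 CPM in naive 1 to 4 and at 31.2, 40.6, 40.4, 23.5 and 43.5 CPM in bleomycin 1 to 5. The lowest bleomycin library, bleomycin 4, lay just above the highest naive one (log2 fold change 0.93, SE 0.21, edgeR adjusted p = 0.00395). Ifngr1, the other chain, had a log2 fold change of 0.09 (edgeR adjusted p = 0.692).

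Prdm1, which encodes BLIMP1, a repressor of Ciita in plasma cells, stood at 19.1, 13.2, 17.7 and 11.6 CPM in naive 1 to 4. In bleomycin 1 to 5 it stood at 2.38, 1.80, 2.79, 0.619 and 4.12 CPM. The groups were far apart, with a log2 fold change of -2.64 (SE 0.37, edgeR adjusted p = 5.72e-05). Irf1, a transcription factor through which interferon-γ induces Ciita, was not called (log2 fold change 0.09, edgeR adjusted p = 0.726).

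Of 5 tested genes of co-stimulation and adhesion to T cells, Icam1, Nectin2 and Cd276 were higher, beside 11.2% of all genes tested. Icam1, the ligand of the T cell integrin LFA-1, rose from 303 ± 15.5 to 571 ± 49.1 CPM (log2 fold change 0.91, SE 0.11, edgeR adjusted p = 1.5e-05). Of 6 tested genes of class II turnover and of the binding partners of CD74, only Cd44 was called higher, beside the same 11.2%. Cd44, the signalling partner of CD74, had a log2 fold change of 0.51 (SE 0.12, edgeR adjusted p = 0.00406). Of the 15 called genes, 9 were called under all 17 alternatives, namely Ctsb, Ctsd, Ctsz, Cd44, Smarca4, Ifngr2, Socs3, Icam1 and Prdm1, and the other 6 lost their call under some. Without naive 1, and likewise without naive 4, 9 genes were called. Those fits called 14.5% and 13.3% of all genes in either direction, against 20.5% with all libraries. Without bleomycin 1 and 2 there were again 14 higher and 1 lower, and Lgmn was no longer among them (edgeR adjusted p = 0.0744).

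**Figure D4:**
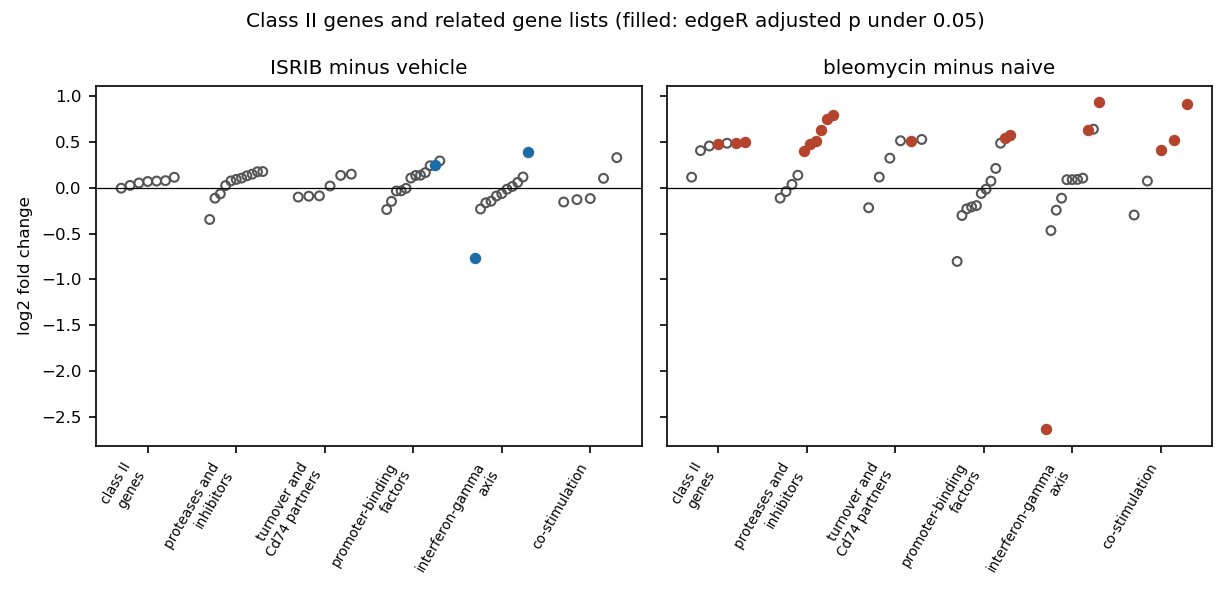
Log2 fold change of each tested gene by list, for ISRIB minus vehicle (left) and bleomycin minus naive (right), with filled points for edgeR adjusted p under 0.05. In the bleomycin panel 6 of 10 proteases and regulators are filled and positive, and Prdm1 lies at -2.64.

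At 24 h after ISRIB, none of the 7 genes was called. Of 12054 genes tested, 2.20% were called (265 genes), 1.10% higher (133) and 1.10% lower (132). The log2 fold changes of the 7 ran from -0.01 for Ciita to 0.11 for H2-DMa, with edgeR adjusted p-values from 0.517 to 0.992, and 0 of 7 had an unadjusted p under 0.05, against 1934 of all genes tested. The 2 groups overlapped for each of the 7, while they did not for 8.65% of all genes. The count of called members was 0 under all 16 alternatives too, DESeq2 and limma-voom included. A p that misses the threshold does not show that the levels were alike, but the 95% intervals bound the change. For the 3 I-A and I-E chains and Cd74 they ran from -0.09 to 0.21 on the log2 scale. For H2-DMb1, H2-DMa and Ciita they reached 0.18, 0.28 and 0.29 at the upper end and -0.08, -0.05 and -0.30 at the lower.

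Cd74 stood at 3545, 3094, 3150 and 3332 CPM in vehicle 1 to 4 and at 3294, 3449, 3221 and 3383 CPM in ISRIB 1 to 4. All ISRIB libraries lay within the vehicle range. H2-Ab1 stood at 786, 671, 679 and 729 CPM in vehicle 1 to 4 and at 704, 813, 687 and 799 CPM in ISRIB 1 to 4. ISRIB 2 and ISRIB 4 lay above all vehicle libraries and the other 2 within their range.

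The same 2 libraries were highest in their group for H2-Aa (837 and 838 CPM, against 745 to 816 CPM in the vehicle libraries), H2-Eb1 (486 and 470 against 398 to 454) and H2-DMa (72.8 and 71.8 against 56.7 to 64.9). Averaged over the 7 genes, ISRIB 2 and ISRIB 4 stood 0.11 and 0.08 above their group's log2 mean, and ISRIB 1 and ISRIB 3 stood at -0.06 and -0.12. Lyz1 reached 3974 CPM in this group, against at most 2351 CPM among the vehicle libraries, and the sums of the macrophage list without Lyz1 were 7.35 to 10.2 CPM after ISRIB and 8.26 to 10.6 CPM after vehicle. The part of what sets these libraries apart in the class II levels was not tested. Without them the log2 fold changes were -0.26 for Ciita (SE 0.14, edgeR adjusted p = 0.434), -0.04 for H2-Ab1, -0.02 for H2-Eb1, -0.01 for both H2-DMa and Cd74, 0.03 for H2-Aa and 0.04 for H2-DMb1, all uncalled.

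Ciita varied most between libraries of a group, with 59.0, 55.0, 36.2 and 51.0 CPM in vehicle 1 to 4 and 42.3, 64.0, 40.9 and 52.4 CPM in ISRIB 1 to 4. The sign of its difference, -0.01 (SE 0.14), changed when vehicle 1, 2 or 4 or ISRIB 1 or 3 was left out. H2-DMb1 stood at 88.3, 78.4, 88.6 and 81.1 CPM in vehicle 1 to 4 and at 85.1, 82.2, 87.5 and 94.3 CPM in ISRIB 1 to 4, with overlapping groups. None of the 21 ratios between the 7 genes passed, with adjusted exact permutation p-values of 0.943. Without ISRIB 2 and ISRIB 4 none passed either, with adjusted exact permutation p-values of 0.7 to 1, where 2 against 4 libraries cannot go below an unadjusted 0.133.

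**Figure D5:**
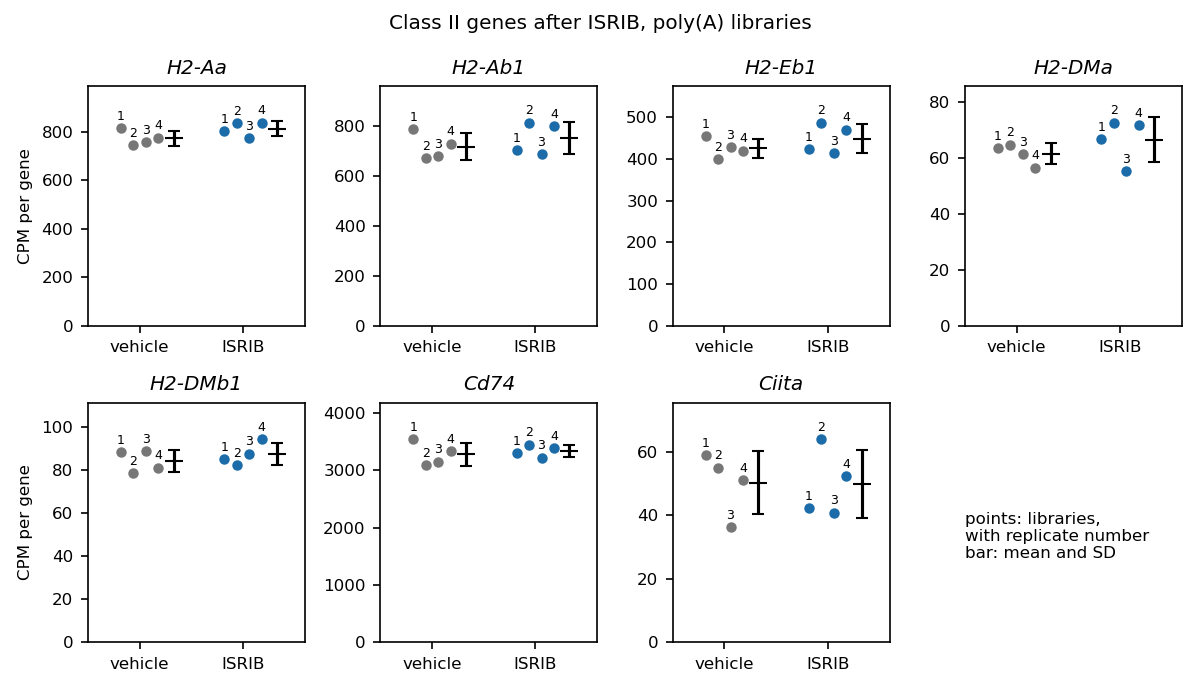
CPM of each gene in the 4 vehicle and 4 ISRIB poly(A) libraries, with replicate numbers, group mean and SD (each vertical axis starts at 0). Groups overlap for all 7 genes, and ISRIB 2 and 4 are the highest ISRIB libraries for every gene except H2-DMb1.

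Of the 67 further pathway genes, 47 were tested after ISRIB, of which 2 were called higher and 1 lower, beside 1.10% of all genes tested in each direction. The counts were the same without ISRIB 2 and ISRIB 4. Socs3, the suppressor of cytokine signalling, fell. It stood at 98.7, 133, 90.6 and 86.8 CPM in vehicle 1 to 4 and at 61.5, 58.2, 62.4 and 58.5 CPM in ISRIB 1 to 4 (log2 fold change -0.76, SE 0.10, edgeR adjusted p = 0.00121). The groups did not overlap, and the call held under all 16 alternatives.

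Irf2, an interferon regulatory factor that can bind the interferon-responsive Ciita promoter, rose from 60.6 to 79.2 CPM (log2 fold change 0.39, SE 0.08, edgeR adjusted p = 0.0137), and Kat2b, an acetyltransferase that interacts with CIITA, from 72.5 to 85.8 CPM (0.24, SE 0.06, edgeR adjusted p = 0.0387). Without vehicle 1, or without vehicle 2, neither was called, with edgeR adjusted p-values of 0.0556 and 0.0541 for Irf2. Kat2b was called under 9 of the 16 alternatives. Rfx5 (log2 fold change -0.24, edgeR adjusted p = 0.31) and Irf1 (-0.15, edgeR adjusted p = 0.385) were not called.

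The remaining class II genes were at or near zero in these cells. H2-DMb2, the copy next to H2-DMb1, gave 100 counts over the 4 vehicle libraries against 4061 for H2-DMb1, or 2.40% of the sum of both. Its share was 2.86% after ISRIB, 1.82% in the naive and 2.79% in the bleomycin libraries. H2-Eb2 had 4 to 31 counts in a poly(A) library. H2-Oa and H2-Ob, the chains of DO, the inhibitor of DM in B cells, and the I-E α pseudogene H2-Ea-ps had 0 counts in all 8 poly(A) libraries, which allows at most 0.0620 CPM over the vehicle group (3 counts, counting error only).

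Defining markers of other presenting cells were read in the same libraries. Ptprc, the pan-leukocyte gene CD45, had 0 to 3 counts in a poly(A) or naive library and 1 to 10 in a bleomycin library. Over the total-RNA groups Ptprc gave 7 counts in the naive and 23 in the bleomycin libraries (0.475 and 0.929 CPM), and Ctss gave 3 and 25 (0.204 and 1.01 CPM). Csf1r, the receptor that macrophages depend on, had 20 to 45 counts in a poly(A) library. Of 9 dendritic cell markers 5 were at 0 in all vehicle libraries, Flt3 among them, and the sum of the list was 3.15 to 5.005 CPM, nearly all of it Zbtb46. Of 9 B cell markers 6 were at 0 in all vehicle libraries, Ms4a1 among them, and Cd79b made up nearly all of the sum of 18.5 to 20.7 CPM. No T or NK cell marker had a count in any poly(A) library. In the total-RNA libraries the dendritic list summed to 4.17 to 10.3 CPM in the naive and 2.63 to 8.79 in the bleomycin libraries, and the macrophage list without Lyz1 to 9.31 to 14.0 and 7.51 to 13.4. The B cell list summed to 2.68 to 9.45 CPM in the naive and 3.09 to 9.39 CPM in the bleomycin libraries, with medians of 5.38 and 7.26 CPM and Ms4a1 at 0 in all 9. The part of these cells in the class II levels was not tested.

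The genes whose level followed the mean of the 7 most closely across libraries, after subtraction of each group's mean, are given as a description. Over the 9 total-RNA libraries these were Saraf, Paqr4, Mal, Rnf114 and Slc38a4, with Pearson r of 0.959 to 0.979 among 9659 genes ranked. Without the 2 libraries farthest from the median, r was 0.875 to 0.938. Slc38a4 fell after bleomycin (log2 fold change -1.08, edgeR adjusted p = 0.000584), opposite in direction to Cd74. Over the 8 poly(A) libraries they were Ddx56, Fam234b, Fam102b, Dmap1 and Noc4l, with r of 0.979 to 0.991 among 9539 genes. No gene was on both lists. These r are the highest of many, over few libraries. Among the 7 themselves, r between a gene and the mean of the others ran from 0.64 for H2-DMa to 0.96 for H2-Eb1 in the total-RNA libraries. In the poly(A) libraries it ran from 0.01 for H2-DMb1 to 0.94 for H2-Ab1.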

How the data were processed

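The deposited values are raw counts of reads per gene, 1 table of 43430 Ensembl IDs for each kit. Every column was assigned to a library. The submitters' processing notes name bcl2fastq 2.19.1, FastQC, Trimmomatic 0.36, STAR 2.6.0, HTSeq 0.11.2 and the build mm10, without roles. Neither the annotation release nor the strand setting is known from the sources used here. A list of gene names gave symbols for 42462 IDs, and GENCODE M21 (GRCm38) gave positions and exon lengths.

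Each comparison was fitted within its kit, with group as the only term: filterByExpr (minimum count 10, minimum total 15), TMM scaling and a two-sided quasi-likelihood test (edgeR 4.0.16, R 4.3.3). Benjamini-Hochberg adjustment ran over all genes tested, and genes were called under 0.05. The procedure was also run on simulated data, whose outcome is not given here. The biological coefficient of variation was 7.66% (ISRIB) and 21.1% (bleomycin). The SE is the log2 fold change over the root of its F statistic, and 95% intervals use the fit's degrees of freedom. CPM are scaled to effective library sizes. Marker sums, and values of genes that were not tested, use raw library totals.

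Each library was counted as 1 replicate. Pairs of libraries of a group differed by more than sampling noise (chi-squared per degree of freedom at least 3.50), which does not show that they came from different mice. Ratios were compared with exact permutation tests in scipy 1.17.1. The text names all 7 genes, the pathway genes called in either comparison (of the called ones some are given by name only), Rfx5, Irf1, Ctss and the other class II genes whatever they did, defining markers, and the 5 genes of at least 5 CPM most correlated with the mean of the 7 in each kit. A further gene of this rule is not reported here. Ifi30, Ifngr1 and Rfxank were added as partners of named genes after their values had been seen. Members, lists and tests were chosen with earlier results of these data known. Alternatives were RLE or upper-quartile scaling, no filter, DESeq2 1.42.0, limma-voom (limma 3.58.1), a replicate block, removal of ribosomal-RNA-like models and leaving out libraries.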

Additional observations from a re-analysis of the deposited data

Results flagged for a closer look

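H2-DMb1 in naive 3 stood at 27.3 CPM, apart from the other 3 naive libraries (30.7 to 31.2 CPM) by more than Dixon's 95% limit for 4 values. It was the only such library in 28 groups of values, of which chance marks about 1 in 20. Without naive 3 the log2 fold change of H2-DMb1 after bleomycin was 0.44 and was no longer called (edgeR adjusted p = 0.0787).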

How the results depend on the processing

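After bleomycin the 7 genes had 3 calls. The count was 5 with no filter on low counts, beside 5.41% of all genes called higher, and H2-Eb1 and Ciita were the added ones. Leaving out a library gave 1 to 6 calls: 1 without naive 2, naive 4 or bleomycin 3, 5 without bleomycin 2 and 6 without bleomycin 1. In these 5 fits 8.54%, 7.5%, 10.8%, 9.51% and 12.3% of all genes were called higher. Without bleomycin 1 and bleomycin 2, chosen after seeing the data, the count of the 7 genes was 6, beside 10.9%. After ISRIB the count was 0 throughout. Of all genes, 265 were called after ISRIB, 648 with no filter, 408 by DESeq2 and 151 without ISRIB 2 and ISRIB 4. Leaving out a library gave 86 to 269, with 86 without vehicle 1, 102 without vehicle 2 and 159 without ISRIB 4. After bleomycin 2304 were called, and 1554 to 2584 with a library left out. Pathway calls numbered 3 after ISRIB, 5 with no filter and 1 to 3 with a library left out (1 without vehicle 1 or vehicle 2). After bleomycin they numbered 15, and 9 to 17 with a library left out.

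Signs turned only for uncalled differences. After ISRIB that of Ciita was 0.0047 by limma-voom, and 0.0823, 0.0416 and 7e-04 without vehicle 1, 2 and 4, and 0.0721 and 0.077 without ISRIB 1 and 3, with -0.149 without ISRIB 2 as the lowest value when a single library was left out. That of Cd74 was -0.0023 without vehicle 2. Without ISRIB 2 and ISRIB 4 the differences were -0.262 for Ciita, whose sign did not turn, -0.041 for H2-Ab1, -0.0202 for H2-Eb1, -0.0061 for H2-DMa and -0.0078 for Cd74. The causes were not tested.

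Replicate numbers did not pair the libraries. Deviations of same-numbered libraries correlated at -0.109 to 0.0849 (ISRIB) and -0.0393 to 0.0474 (bleomycin), and only some libraries correlated best with their own number. With the replicate number as a block, 2 of the 7 genes were called after bleomycin, H2-DMb1 not (edgeR adjusted p = 0.0639), and H2-Aa turned to -0.0028. Pathway calls were 2 after ISRIB and 15 after bleomycin under the block. Depth limits H2-DMa most, with 30 counts in naive 1.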
